A study of Mus musculus with 48 samples.

Results

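The data described here compare the liver transcriptome of fasted mice without hepatocyte p110α on 2 diets. Of the 48 arrays of the series, 12 belong to the comparison: 6 from fasted p110α hep-/- mice on a high-fat diet (HFD) and 6 from fasted p110α hep-/- mice on the control diet (CTRL), chosen by their labels for genotype, diet and nutritional state. All mice were males that carried floxed p110α alleles. The p110α hep-/- mice (LKO in the labels) also carried albumin-Cre, a transgene that recombines floxed alleles in hepatocytes and leaves the gene intact in the other cells of the liver, and the p110α hep+/+ mice (LWT) were littermates without Cre. The diets began at 12 weeks of age and lasted 12 weeks, and the HFD drew 60% of its calories from fat. Fasted mice went without food for 24 h, and fasted and fed mice were killed at Zeitgeber time 16, in the dark phase. Total liver RNA was labelled in 1 colour and hybridised to Agilent mouse arrays, 1 array per mouse. A further 24 arrays enter 2 tests of whether the HFD effect differed, 12 from fasted p110α hep+/+ mice and 12 from fed p110α hep-/- mice, each with 6 mice on either diet.

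p110α, encoded by Pik3ca, is the catalytic subunit of a phosphoinositide 3-kinase that carries part of the insulin signal in hepatocytes, from the insulin receptor to AKT. In a fed liver this signal promotes glucose use and fatty acid synthesis and restrains FOXO1, whereas in a fasted liver insulin is low and PPARα drives fatty acid oxidation and ketone production. A high-fat diet supplies the liver with fatty acids directly and raises circulating insulin.

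Values below are normalized log2 signals of the brightest probe of each gene, differences are HFD minus CTRL in log2 units, fitted with limma on weighted arrays, and p-values are adjusted over all probes by the Benjamini-Hochberg method. A gene was called changed when its adjusted p did not exceed 0.05 and its change was larger than 1.5-fold. The 12 arrays resembled each other closely, with correlations between 0.989 and 0.997, and weights from 0.635 to 1.47. Over all 48 arrays, between 50.1% and 57.4% of probes were well above background. The Pik3ca probe (chr3:32364747-32364806, mm9) lay between 13.27 and 13.55 (median 13.45) in the CTRL mice and between 13.31 and 13.71 (median 13.49) in the HFD mice. Its level in p110α hep-/- mice differed from that in p110α hep+/+ mice by 0.08 on CTRL and by 0.25 on HFD, so this probe does not see the deletion and offers no check of the genotype labels.

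CTRL mice 5 and 6 stood apart together from the other 4 CTRL mice, although their arrays were on different slides and in different wash batches. They held both extreme values at one end of their group in 30.9% of 20482 genes, against 16.9% for the next pair of CTRL mice, and in 179 of the 387 genes called below. Cyp2c70, a cytochrome P450 of bile acid metabolism, was at 11.99 and 11.90 in them and at 13.78 to 14.36 in the other 4. The laminin subunit Lamb3 was at 11.36 and 11.18 in them and at 9.23 to 9.81 in the others. Calls of named genes that were lost without this pair are therefore pointed out beside their values.

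Markers of the cell types in liver showed few differences between the diets. None of 9 hepatocyte markers was called, and their summed signal lay between 21.02 and 21.08 in CTRL and between 21.06 and 21.11 in HFD mice. None of 12 Kupffer cell, 9 lipid-associated macrophage, 13 stellate cell and collagen, 10 endothelial, 5 cholangiocyte, 10 lymphocyte or 6 neutrophil markers was called either. Of the stellate cell and collagen markers, 12 of 13 differences were positive, and their summed signal lay between 14.63 and 15.08 (median 14.96) in CTRL and between 14.96 and 15.24 (median 15.22) in HFD mice. Without the fold threshold, 2 endothelial and 1 neutrophil marker passed the adjusted p as higher. The 4 erythroid markers had a summed signal of 16.56 to 17.47 (median 16.87) in CTRL and 16.71 to 18.43 (median 18.03) in HFD mice, and 3 of the 4 were called higher on HFD. These were the globins Hbb-b1 (0.93, adjusted p = 0.0183) and Hba-a1 (0.80, adjusted p = 0.0136) and the red cell anion exchanger Slc4a1 (0.81, adjusted p = 0.0171). The groups overlapped for all 3, and without CTRL mice 5 and 6 only Slc4a1 kept its call. None of the 3 was called without HFD mouse 3. In RNA from whole liver, more cells of a type and more RNA per cell cannot be told apart. Of the 4 adipocyte markers, Cfd was called, with values of 5.54 to 6.16 in CTRL and 6.33 to 10.87 in HFD mice, whereas Lep differed by −0.01 and Plin1 by −0.12. Mean Cfd levels in fasted p110α hep+/+ mice were far higher, at 11.30 on CTRL and 13.83 on HFD. The level of Cfd thus differed with the hepatocyte genotype, and the source of its signal was not tested. The part of blood, stellate or fat cells in the results below was not tested.

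The HFD changed 387 of 20486 genes in the fasted p110α hep-/- liver. Of these, 188 genes were higher on HFD (0.918% of all genes) and 199 were lower (0.971%). At the adjusted p alone there were 1158 higher and 1062 lower genes, and at least a 2-fold change was seen for 54 higher and 62 lower genes. The median difference over all genes was −0.00085. All 387 genes had the same direction in both wash batches. The calls were made from these same arrays, so this agreement is not separate support. For 840 genes, or 4.1% of those tested, the 6 HFD values did not overlap the 6 CTRL values. Without CTRL mice 5 and 6 the count was 384 genes, 185 higher and 199 lower, and 330 of them were among the 387.

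**Figure D1:**
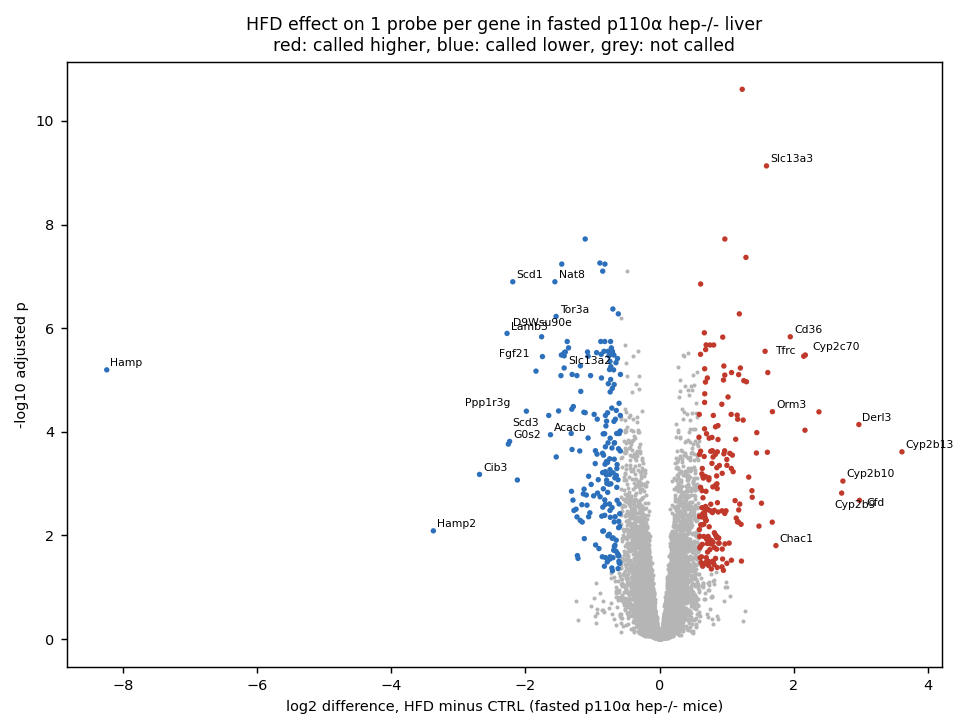
Difference between HFD and CTRL in fasted p110α hep-/- mice (x axis, log2) against the −log10 adjusted p (y axis) for each of 20486 genes, with called genes coloured by direction. The 188 higher and 199 lower genes lie on both sides, and Hamp lies farthest out, at −8.24.

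The large non-overlapping rises included cytochromes P450 of the Cyp2b family and Cyp2c70, and the ER gene Derl3. Cfd, from the list of adipocyte markers, and genes of fatty acid and iron uptake were also among them. Cyp2b13 ranged from 5.41 to 6.07 (median 5.85) in CTRL mice, where 4 of 6 arrays were well above background, and from 7.30 to 12.43 (median 9.83) in HFD mice, a difference of 3.61 (SE 0.67, adjusted p = 0.000244). Slc13a3, a sodium-coupled dicarboxylate transporter, had the smallest adjusted p of the named rises. It rose from 10.38 to 11.11 (median 10.63) in CTRL to 11.86 to 12.57 (median 12.28) in HFD mice, a difference of 1.59 (SE 0.15, adjusted p = 7.38e-10). No HFD mouse came near the CTRL range for this gene.

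The largest non-overlapping falls were led by Cib3, a calcium- and integrin-binding protein, which went from 8.55 to 11.69 (median 9.59) in CTRL to 5.97 to 7.92 (median 6.87) in HFD mice, a difference of −2.68 (SE 0.54, adjusted p = 0.000664). Lamb3 followed at −2.27 (adjusted p = 1.26e-06), and at −1.94 without CTRL mice 5 and 6. Ppp1r3g, a glycogen-targeting subunit of protein phosphatase 1, lay between 10.07 and 11.13 in CTRL and between 7.89 and 9.46 in HFD mice (−1.99, adjusted p = 4e-05). Nat8, an N-acetyltransferase, was at 11.44 to 11.94 in CTRL and 9.78 to 10.51 in HFD mice, with little spread in either group (−1.56, SE 0.18, adjusted p = 1.27e-07). Tor3a, a torsin of the endoplasmic reticulum, fell by 1.54 (adjusted p = 5.93e-07). D9Wsu90e fell by 1.76 (adjusted p = 1.46e-06), and the citrate and dicarboxylate transporter Slc13a2 fell by 1.47 (adjusted p = 3.3e-06). Slc13a2 and Slc13a3 thus moved in opposite directions.

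**Figure D2:**
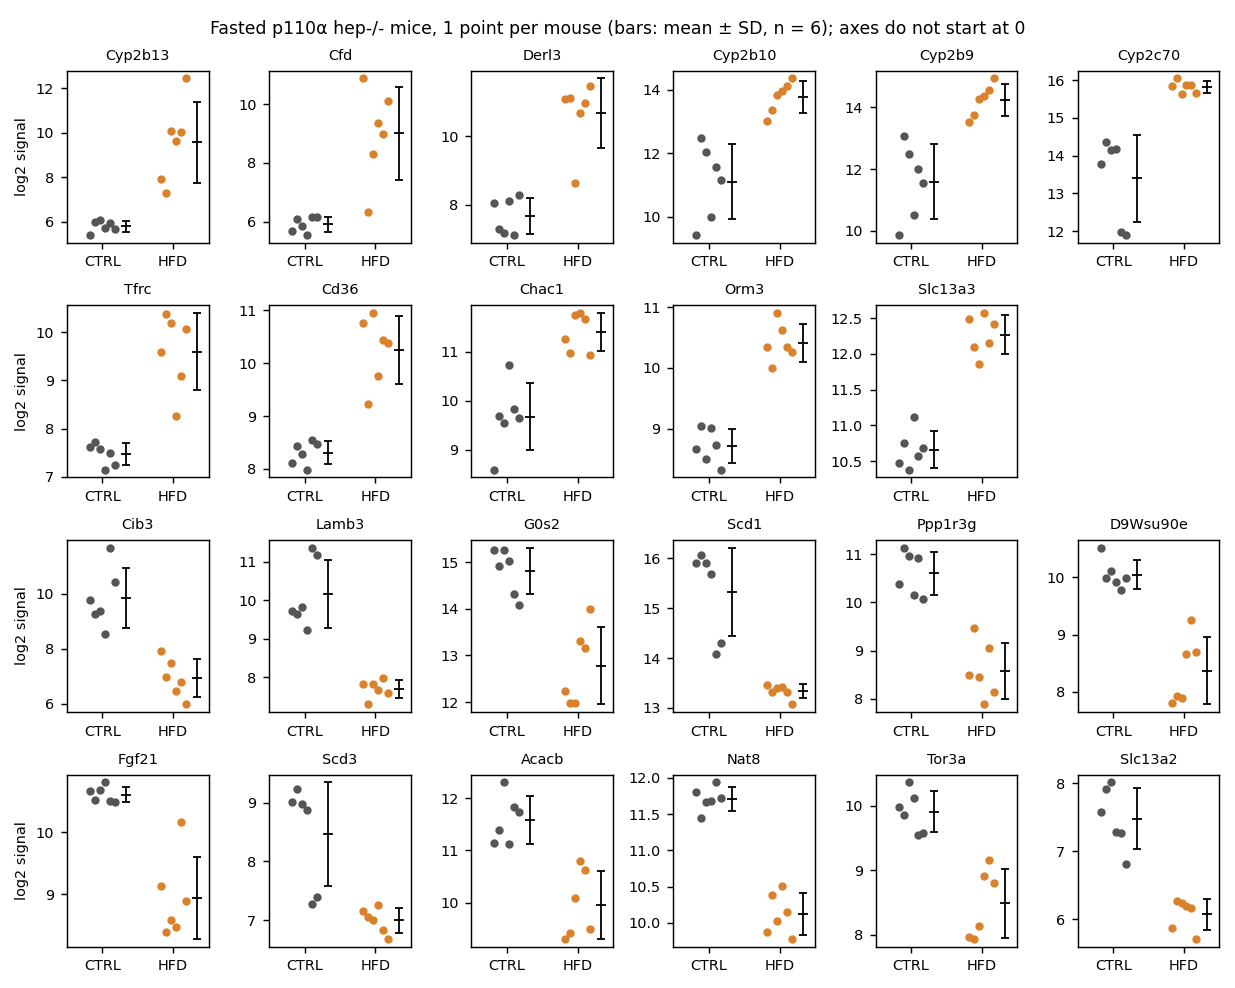
Normalized log2 signal (y axis) of named genes in each of the 6 CTRL and 6 HFD fasted p110α hep-/- mice, for 11 of the largest rises (upper rows) and the 12 largest falls (lower rows) without overlap between the groups, 1 point per mouse in the order of mouse number, with the mean and SD beside them (n = 6). CTRL mice 5 and 6 carry the lowest Cyp2c70 values of their group, 11.99 and 11.90, and the highest Lamb3 values, 11.36 and 11.18.

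Most genes of protein folding in the endoplasmic reticulum (ER) rose on HFD. Of 19 ER chaperones and folding factors measured, 12 were called higher and none lower, 17 passed the adjusted p without the fold threshold, and all 19 differences were positive, with a median of 0.74. Within the wash batches the medians were 0.78 and 0.72, again with 19 of 19 positive. Both batches are part of the data behind the main result, so this agreement is not a separate test. In a fit of wash batch 1 alone, with 150 genes called in all, 9 of the ER genes were called. In a fit of wash batch 2 alone, with 419 genes called in all, none was. Both batches hold 3 mice on each diet.

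The promoters of these genes are shown because the ER stress response element, the sequence through which ATF6 and XBP1 act on chaperone genes, can be looked for in them directly. The element was searched as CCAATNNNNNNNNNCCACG on both strands in the 250 bases before the annotated start of each gene (RefSeq, GRCm38.p6). It was present in 37 of 32851 promoters (0.113%), which belong to 35 of 27025 genes (0.13%). Among the 17 ER genes with a promoter in the table, 8 held it, and among the 10 of them called higher, 5 did. A match describes the letters in the window and is not a measurement of binding. The promoters of Derl3, Creld2 and Hspa5, 3 of the called genes that hold it, are printed 5′ to 3′ on the strand of the gene, with the element in capitals. Derl3 (chr10:75893148-75893397, plus strand) carries it on the opposite strand, 156 to 138 bases before the start, as does Creld2 (chr15:88819396-88819645, plus strand), at 126 to 108 bases. Hspa5 (chr2:34771840-34772089, plus strand) carries it on its own strand, at 65 to 47 bases.
Derl3: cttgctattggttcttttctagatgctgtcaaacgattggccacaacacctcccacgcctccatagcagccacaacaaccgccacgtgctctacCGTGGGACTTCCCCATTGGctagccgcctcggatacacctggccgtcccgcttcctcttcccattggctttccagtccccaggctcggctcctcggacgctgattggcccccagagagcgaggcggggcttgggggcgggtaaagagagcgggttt
Creld2: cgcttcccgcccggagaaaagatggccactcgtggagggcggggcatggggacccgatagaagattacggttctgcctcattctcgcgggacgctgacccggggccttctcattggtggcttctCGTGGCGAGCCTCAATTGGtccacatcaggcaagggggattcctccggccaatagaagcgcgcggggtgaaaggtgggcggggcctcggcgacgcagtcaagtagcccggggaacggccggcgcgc
Hspa5: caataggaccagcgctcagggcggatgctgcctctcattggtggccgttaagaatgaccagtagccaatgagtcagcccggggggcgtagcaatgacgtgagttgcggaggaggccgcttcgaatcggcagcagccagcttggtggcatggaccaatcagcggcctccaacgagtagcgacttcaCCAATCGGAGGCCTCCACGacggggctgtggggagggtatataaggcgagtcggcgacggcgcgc

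Derl3, a component of the machinery that retrieves misfolded proteins from the ER, changed most. Its values were 7.11 to 8.29 (median 7.67) in CTRL and 8.64 to 11.47 (median 11.02) in HFD mice, a difference of 2.97 (SE 0.50, adjusted p = 7.24e-05), or 7.82-fold. HFD mouse 3 was low at 8.64, and the next HFD mouse was at 10.69. Sdf2l1, which works with the chaperone BiP, went from 7.74 to 9.78 (median 8.74) to 9.65 to 11.75 (median 11.28), a difference of 2.16 (SE 0.37, adjusted p = 9.32e-05). The lowest HFD mouse lay just under the highest CTRL mouse. Creld2, an ER stress-inducible secreted protein, rose by 1.48 (SE 0.37, adjusted p = 0.00661), and the trophic factor Manf rose by 1.38 (SE 0.30, adjusted p = 0.00184). Hspa5, which encodes BiP itself, was at 14.69 ± 0.42 (SD, n = 6) in CTRL and 15.68 ± 0.35 (SD, n = 6) in HFD mice, a rise of 0.99 by limma (adjusted p = 0.00335). Xbp1 differed by 0.28 (adjusted p = 0.221) and was not called. Across the wash batches the 4 largest of these differences were alike, at 3.05 and 2.93 for Derl3, 2.38 and 1.99 for Sdf2l1, 1.61 and 1.38 for Creld2, and 1.48 and 1.24 for Manf.

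The ATF4 branch of the stress response moved less uniformly. Of 18 measured genes, 3 were called higher and 1 lower, with a list median of 0.11. Chac1, a glutathione-degrading enzyme, rose from 8.60 to 10.74 (median 9.67) to 10.94 to 11.79 (median 11.46), a difference of 1.73 (SE 0.49, adjusted p = 0.0157). This call was lost without CTRL mouse 1 (1.41, adjusted p = 0.0707). Ddit3, the transcription factor CHOP, rose by 0.83 (adjusted p = 0.00106) and its target Trib3 by 0.75 (adjusted p = 0.00335). Asparagine synthetase (Asns) differed by −0.73 (adjusted p = 0.204).

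Several genes of fatty acid synthesis and desaturation were lower on HFD. Of 20 lipogenic genes, 7 were called lower and 1 higher, and the median was −0.31. Scd1, the Δ9 desaturase that makes monounsaturated fatty acids, lay between 14.08 and 16.05 (median 15.79) in CTRL and between 13.07 and 13.46 (median 13.36) in HFD mice, a difference of −2.19 (SE 0.25, adjusted p = 1.27e-07). The groups did not overlap, although CTRL mice 5 and 6, at 14.08 and 14.30, were the lowest of their group, and without them the difference was −2.54. Scd3 fell by 1.65 (adjusted p = 4.83e-05) on its brightest probe, while its other probe differed by 0.09. Elovl6, which lengthens C16 fatty acids, lay between 11.04 and 12.27 in CTRL and between 9.90 and 10.28 in HFD mice (−1.42, SE 0.20, adjusted p = 2.96e-06). Acacb, the mitochondrial acetyl-CoA carboxylase, fell by 1.63 (adjusted p = 0.000114) on its brightest of 3 probes, and the probes ranged from −1.63 to 0.05, so that the median over its probes was not lower. Fatty acid synthase (Fasn) differed by −0.23 (adjusted p = 0.549), Acaca by −0.28 (adjusted p = 0.183) and Srebf1, the insulin-responsive activator of the pathway, by 0.56 (adjusted p = 0.089), and none of these 3 was called.

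Of 15 genes of glucose uptake and glycolysis, 1 was called lower and 1 higher. The lower one was Pklr, the liver pyruvate kinase, which differed by −0.74 (adjusted p = 0.0286), a call that was lost without CTRL mice 5 and 6, and without CTRL mouse 1 or 3 or HFD mouse 2, 5 or 6 on its own.

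Cholesterol synthesis genes were lower in part. Of 23 measured, 4 were called lower and none higher, and the median was −0.37. These were Tm7sf2 (−0.88, adjusted p = 1.81e-06), Dhcr7 (−0.82, adjusted p = 0.00409), Cyp51 (−0.77, adjusted p = 0.0101) and Hsd17b7 (−0.77, adjusted p = 2.79e-06), which act in the later steps from lanosterol to cholesterol. With the median over its probes Cyp51 was at −0.55, under the fold threshold. For all 4 the groups did not overlap.

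Several genes of the fasting response, in which fatty acids are oxidised and glucose is spared, were lower on HFD. Of 26 fatty acid oxidation genes, 25 differences were negative and 17 passed the adjusted p as lower, but only 3 also passed the fold threshold. Ehhadh, the peroxisomal bifunctional enzyme, lay between 14.63 and 15.37 in CTRL and between 13.12 and 14.54 in HFD mice, a difference of −1.38 (SE 0.18, adjusted p = 1.81e-06). Acaa1b, a peroxisomal thiolase, fell by 0.68 (adjusted p = 0.000338), and Hadha, of the mitochondrial trifunctional protein, fell by 0.59 (adjusted p = 7.81e-06). Hadha lay so close to the fold threshold that 12 of 29 alternatives took it below, with −0.48 without CTRL mice 5 and 6, −0.55 and −0.51 without either of them, −0.58 without CTRL mouse 4 and −0.55 to −0.57 without HFD mouse 2, 3 or 4. The call of Acaa1b was lost without HFD mouse 2 (−0.54). Cpt1a, the entry step into mitochondria, differed by −0.31 (adjusted p = 0.0357), under the fold threshold. None of 7 genes of ketone body metabolism was called.

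Of 10 Cyp4a hydroxylases and acyl-CoA thioesterases, 5 were called lower and all 10 differences were negative, with a median of −0.74. Acot2, a mitochondrial thioesterase, lay between 10.95 and 11.93 (median 11.56) in CTRL and between 9.69 and 11.62 (median 10.11) in HFD mice (−1.16, SE 0.26, adjusted p = 0.00255), and Acot5 fell by 1.14 (adjusted p = 0.00158). Cyp4a14, a classical PPARα target, had nearly equal ranges, 10.68 to 11.87 in CTRL and 10.41 to 11.80 in HFD mice (−0.18, adjusted p = 0.859). Cyp4a12a (−1.23, adjusted p = 0.0245) and Cyp4a12b (−1.22, adjusted p = 0.0278) lost their calls without CTRL mice 5 and 6, where Cyp4a12a was at −0.98 (adjusted p = 0.0978). Either call was also lost without HFD mouse 3 or 5 alone and without CTRL mouse 5 or 6 alone, and that of Cyp4a12b without HFD mouse 6 or CTRL mouse 1. Without the pair, 3 of the 10 genes were called lower.

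Of 11 other genes of the fasting response, 3 were called lower (Pdk4, Fgf21 and Txnip) and 1 higher (Pparg, given below). Pdk4, the kinase that shuts off pyruvate oxidation in fasting, lay between 10.54 and 13.18 (median 12.57) in CTRL and between 8.57 and 11.88 (median 10.09) in HFD mice, a difference of −2.26 (SE 0.41, adjusted p = 0.000173). Its 2 lowest CTRL values, 10.56 and 10.54, were those of CTRL mice 5 and 6, and without them the difference was −2.76. Fgf21, a fasting hormone made by the liver, lay in a narrow band of 10.48 to 10.80 (median 10.58) in CTRL and at 8.39 to 10.16 (median 8.74) in HFD mice (−1.75, SE 0.25, adjusted p = 3.53e-06). The arrestin-related glucose sensor Txnip fell by 1.11 (adjusted p = 4.27e-05). G6pc, the final enzyme of glucose output, fell from 14.68 to 15.83 (median 15.49) to 13.56 to 14.74 (median 14.31), a difference of −1.19 (adjusted p = 0.000234). Got1, the cytosolic aspartate aminotransferase, differed by −0.78 (adjusted p = 0.0326), a call that was lost without HFD mouse 1, 5 or 6 or CTRL mouse 1 or 2 (adjusted p = 0.053 to 0.113). Pck1, which is often taken with G6pc as a marker of gluconeogenesis, differed by −0.05 (adjusted p = 0.932). Of 12 gluconeogenic genes, G6pc and Got1 were the ones called.

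On the lipid droplet, 4 of 18 genes were called lower and none higher. Cidec, which fuses lipid droplets into larger ones, lay between 11.22 and 13.85 (median 12.20) in CTRL and between 8.94 and 11.95 (median 10.18) in HFD mice (−2.12, SE 0.44, adjusted p = 0.000852). CTRL mice 5 and 6 were both at 13.85, and without them the difference was −1.73 (adjusted p = 0.00564). G0s2, an inhibitor of the triglyceride lipase ATGL, fell from 14.08 to 15.26 (median 14.98) to 11.98 to 13.99 (median 12.71), a difference of −2.24 (SE 0.40, adjusted p = 0.000154) with no overlap. The droplet coat protein Plin2 fell by 1.07 (adjusted p = 0.000132) and Hilpda, another ATGL inhibitor, by 0.82 (adjusted p = 0.000109).

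In contrast, a few genes that bring fatty acids into cells were higher on HFD. Of 13 uptake and binding genes, 3 were called higher and 1 lower, and the list median was −0.06. The fatty acid translocase Cd36 lay between 7.99 and 8.55 (median 8.36) in CTRL and between 9.24 and 10.95 (median 10.41) in HFD mice, a difference of 1.94 (SE 0.25, adjusted p = 1.46e-06), or 3.85-fold. Its difference was 1.47 in wash batch 1 and 2.43 in wash batch 2. The lipoprotein receptor Vldlr rose by 1.33 (adjusted p = 0.000749), and lipoprotein lipase (Lpl) rose by 1.29 (adjusted p = 1.08e-05) on its brightest of 6 probes, which ranged from 0.07 to 1.29 with a median of 0.42. The binding protein Fabp5 fell by 1.28 (adjusted p = 0.0033). The nuclear receptor Pparg, which activates Cd36 and other genes of fat storage in liver, lay between 8.29 and 8.85 in CTRL and between 9.19 and 10.20 in HFD mice (1.15, adjusted p = 4.77e-05).

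**Figure D3:**
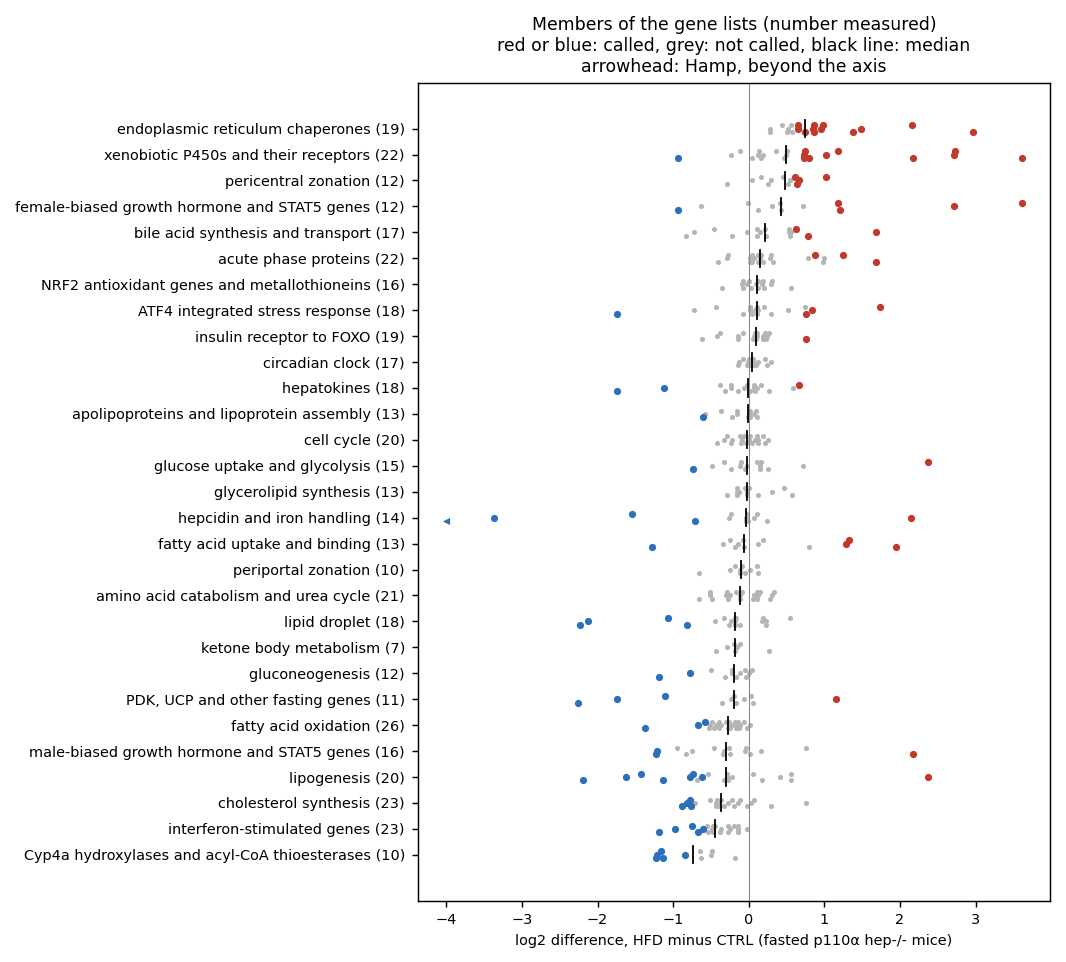
Differences between HFD and CTRL in fasted p110α hep-/- mice (x axis, log2) for the measured genes of each list, 1 point per gene, with called genes coloured, the list median as a black line and Hamp, at −8.24, as an arrowhead at the edge. The 19 ER chaperones all lie to the right of 0, with a median of 0.74, and the 23 interferon-stimulated genes all to the left, with a median of −0.45.

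Enzymes of drug and steroid metabolism were prominent among the rises. Of 22 xenobiotic P450s and their receptors, 10 were called higher and 1 lower, with a median of 0.50. Cyp2b10, the usual readout of the receptor CAR, lay between 9.42 and 12.47 (median 11.36) in CTRL and between 13.01 and 14.35 (median 13.88) in HFD mice (2.73, SE 0.56, adjusted p = 0.000893), and its other probe gave 0.87. Cyp2b9 rose by 2.71 (adjusted p = 0.00152). The 3 Cyp2b genes are close paralogs, and their probes may share signal. Cyp2c70, which makes the muricholic acids of mouse bile, lay between 11.90 and 14.36 (median 13.97) in CTRL and in a narrow band of 15.63 to 16.04 (median 15.86) in HFD mice, a difference of 2.17 (SE 0.30, adjusted p = 3.3e-06). Without CTRL mice 5 and 6, which were at 11.99 and 11.90, the difference was 1.71 (adjusted p = 4.84e-06). Cyp3a11, a readout of the receptor PXR, differed by 0.50 (adjusted p = 0.254).

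Several of these P450s are sexually dimorphic in mouse liver under growth hormone and STAT5, and all of these mice were males. Of 12 female-biased genes, 4 were called higher and 1 lower, with a median of 0.42. They included Cyp2b9, Cyp2b13, the steroid hydroxylase Cyp2a4 (1.18, adjusted p = 7.88e-06) and the estrogen sulfotransferase Sult1e1 (1.21, adjusted p = 0.0061). Of 16 male-biased genes, 2 were called lower, both Cyp4a12 genes, whose probes may share signal, and 1 higher, Cyp2c70. Without CTRL mice 5 and 6 no male-biased gene was called lower.

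Genes expressed around the central vein were higher in part. Of 12 pericentral genes, 4 were called higher and none lower, with a median of 0.48, against 0 of 10 periportal genes. Cyp1a2 lay between 10.81 and 11.59 in CTRL and between 11.94 and 12.39 in HFD mice (1.02, adjusted p = 2.13e-05). The glutamate transporter Slc1a2 rose by 0.67 (adjusted p = 8.77e-05), the ammonium transporter Rhbg by 0.63 (adjusted p = 0.0149) and the R-spondin receptor Lgr5 by 0.61 (adjusted p = 0.0163). Lgr5 was called under 20 of 29 alternatives, and its call was lost without HFD mouse 1 (adjusted p = 0.0578), HFD mouse 2 (0.49, adjusted p = 0.0926) or CTRL mouse 2 (adjusted p = 0.0506). Without HFD mouse 3 it was under the fold threshold. That of Rhbg was lost without HFD mouse 1.

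For bile acid synthesis and transport, 3 of 17 genes were called higher. Cyp7a1, the rate-limiting enzyme of bile acid synthesis, lay between 7.51 and 10.16 (median 9.25) in CTRL and between 9.86 and 11.57 (median 10.46) in HFD mice (1.68, SE 0.41, adjusted p = 0.00555). The cholesterol exporter subunit Abcg8 rose by 0.78 (adjusted p = 0.000407). The bile salt pump Abcb11 rose by 0.63 (adjusted p = 0.00292) and lost this call without CTRL mice 5 and 6, and without HFD mouse 3 or 5 or CTRL mouse 1 or 5 alone. Cyp8b1, which sets the share of cholic acid, differed by −0.73 (adjusted p = 0.0675).

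The single largest difference was in Hamp, the gene of hepcidin, the hormone that limits iron export into blood. Since Hamp and its duplicate Hamp2 lie next to each other and are similar in sequence, the probes that measured them are shown, aligned from base 2 of the Hamp probe and base 1 of the Hamp2 probe, with the 42 matching bases of 59 in capitals. The Hamp probe lies at chr7:31727490-31727549 and the Hamp2 probe at chr7:31707520-31707579 (mm9).
Hamp: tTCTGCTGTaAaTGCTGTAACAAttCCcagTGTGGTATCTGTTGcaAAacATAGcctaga
Hamp2: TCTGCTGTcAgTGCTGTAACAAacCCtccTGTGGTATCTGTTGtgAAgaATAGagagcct

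Hamp lay between 14.57 and 16.42 in the 6 CTRL mice. In HFD mice 1 to 6 it was at 5.02, 4.93, 4.89, 16.06, 8.88 and 6.05, and the first 3 of these were not well above background. Thus 5 HFD mice were far under the CTRL range and HFD mouse 4 was within it. The difference was −8.24 (SE 1.20, adjusted p = 6.38e-06), and −10.02 without HFD mouse 4. With 3 of the 6 HFD arrays not well above background, these are differences between measured signals and not exact sizes of the fall. HFD mouse 4 was in wash batch 1, where the difference was −5.59 against −10.6 in wash batch 2. Hamp2 was at 5.64, 5.96, 5.68, 12.22, 11.16 and 6.99 in HFD mice 1 to 6 and between 9.75 and 12.44 in CTRL mice (−3.37, SE 0.87, adjusted p = 0.00816). Its call was lost without HFD mouse 1, 2 or 3, where the adjusted p was 0.0513, 0.0593 and 0.054. HFD mice 4 and 5 were thus high for Hamp2, and mouse 4 alone for Hamp.

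Other genes of iron handling changed too. Of 14 measured, 4 were called lower and 1 higher. Id1, a target of the BMP and SMAD signal that also drives Hamp, fell from 9.27 to 10.67 (median 10.38) to 8.15 to 9.90 (median 8.44), a difference of −1.54 (SE 0.29, adjusted p = 0.000305), and HFD mouse 4 was again the highest at 9.90. Bmp6, a ligand that starts this signal, fell by 0.71 (adjusted p = 3.49e-05). The transferrin receptor Tfrc, whose mRNA is stabilised when cell iron is low, lay between 7.15 and 7.73 (median 7.54) in CTRL and between 8.26 and 10.37 (median 9.82) in HFD mice (2.15, SE 0.30, adjusted p = 3.48e-06). HFD mouse 4 was the lowest of its group for Tfrc, at 8.26. The erythroid markers described above were higher in the HFD group, and the same mouse was its lowest for Hba-a1 (16.66), Hbb-b1 (10.44) and Slc4a1 (5.94). Their part in these differences was not tested.

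Several interferon-stimulated genes were lower on HFD. All 23 measured differences were negative, with a median of −0.45, 8 passed the adjusted p and 5 were called. Oasl1, an oligoadenylate synthetase-like protein, lay between 9.91 and 10.39 in CTRL and between 8.50 and 9.66 in HFD mice (−1.18, SE 0.17, adjusted p = 5.33e-06). The transcription factor Irf7 fell by 0.98 (adjusted p = 4.61e-05). Ifit1 (−0.75, adjusted p = 0.0095) and Isg15 (−0.68, adjusted p = 0.00548) lost their calls without HFD mouse 3, and Isg15 also without CTRL mice 5 and 6 (−0.57, under the fold threshold). The number called depended on single mice, being 2 without HFD mouse 3, 11 without HFD mouse 4 and 3 without CTRL mice 5 and 6.

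Secreted proteins showed a few changes. Of 22 acute phase genes, 3 were called higher: Orm3, an orosomucoid, from 8.32 to 9.04 to 10.00 to 10.91 (1.68, adjusted p = 4.09e-05), Saa4 (1.25, adjusted p = 1.03e-05) and Saa3 (0.88, adjusted p = 0.014). Saa3 lost its call without CTRL mice 5 and 6 and without HFD mouse 4. Of 18 hepatokines, Fgf21 and the activin subunit Inhbe (−1.13, adjusted p = 0.00128) fell, and Lect2 rose by 0.67 (adjusted p = 2.71e-05). Among 13 apolipoprotein and lipoprotein assembly genes only Apoa5 was called (−0.61, adjusted p = 0.000105), and it was under the fold threshold without HFD mouse 1, 2 or 3. Of 19 genes from the insulin receptor to FOXO, Trib3 alone was called, while Irs2 differed by −0.62 (adjusted p = 0.152), Igfbp1 by −0.38 (adjusted p = 0.693) and Insr by −0.15 (adjusted p = 0.231). No gene was called among 13 of glycerolipid synthesis, 21 of amino acid catabolism and the urea cycle, 17 of the circadian clock, 16 NRF2 targets and metallothioneins and 20 of the cell cycle.

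The genotype by diet interaction asked whether the HFD effect in fasted p110α hep-/- mice differed from that in fasted p110α hep+/+ mice, which are a separate set of 12 mice. In the p110α hep+/+ mice 375 of the 20486 genes were called higher and 200 lower. Of the 188 genes higher in p110α hep-/- mice, 49 were also called higher there, which is 26.1% of the one list and 13.1% of the other. Of the 199 lower genes 40 were also called lower, or 20.1% and 20% of the lists, and 3 were called in the opposite direction. By sign alone, 162 of the 188 higher and 157 of the 199 lower genes had the same direction in both genotypes. The interaction itself was called for 379 genes (1.85% of all), with the p110α hep-/- effect the more positive for 110 and the more negative for 269. These included 40 of the 188 higher and 70 of the 199 lower genes. The same HFD difference picked these genes and enters the interaction, so their share is not comparable with that of all genes.

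Among the most negative interactions were genes of lipid droplets and desaturation. For Cidec the HFD effect was −2.12 with the deletion and 1.36 without it, a difference of −3.48 (adjusted p = 0.000502). Scd1 changed by −2.19 against −0.02 (−2.17, adjusted p = 0.000297), and 8 of the 20 lipogenic genes were called for the interaction, 7 of them more negative in p110α hep-/- mice. Cidea, another droplet protein, stayed between 5.34 and 6.99 in all 12 p110α hep-/- mice, and its interaction of −2.43 (adjusted p = 0.0321) rested on a change of 2.97 in p110α hep+/+ mice. The interaction of Cidea was not called without CTRL mice 5 and 6 (adjusted p = 0.0543), nor without HFD mouse 2 or 3. Sqle, the squalene epoxidase, had 1 of 6 HFD arrays well above background, an HFD effect of −0.72 (adjusted p = 0.332) against 1.82, and an interaction of −2.54 (adjusted p = 0.00948). Of the 23 cholesterol synthesis genes, 12 were called for the interaction, all more negative in p110α hep-/- mice, with list medians of −0.37 and 0.47 in the 2 genotypes. Ly6d, a GPI-anchored surface protein, changed by −0.59 (adjusted p = 0.358) against 1.96 (interaction −2.55, adjusted p = 0.00259). For Pdk4 the interaction was −2.12 (adjusted p = 0.0217), and for Plin2 it was −1.07 (adjusted p = 0.012).

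Markers of lipid-associated macrophages, and some of stellate cells and collagen, also differed in their HFD effect between the genotypes. The 9 lipid-associated macrophage markers had a median HFD effect of −0.03 with the deletion and 1.02 without it, and 7 of them were called for the interaction. Gpnmb, a marker of such macrophages, differed by 0.02 on HFD with the deletion and by 1.32 without it (interaction −1.30, adjusted p = 0.00406), and Trem2 by −0.29 and 1.06 (interaction −1.35, adjusted p = 0.0405). Of 13 stellate cell and collagen markers 4 were called, among them Col1a1, with 0.51 against 1.83 (interaction −1.32, adjusted p = 0.0293). Of 12 Kupffer cell markers only 1 was called. Of 23 interferon-stimulated genes 8 were called, all more negative in p110α hep-/- mice, with list medians of −0.45 and 0.16.

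The most positive interactions were in Krt23, a keratin (1.84, adjusted p = 0.00447), the lectin-like receptor Clec2h (1.81, adjusted p = 0.035), the antisense transcript Dio3os (1.75, adjusted p = 0.00178), the Wnt inhibitor Wif1 (1.64, adjusted p = 0.000651) and Cyp2c70 (1.54, adjusted p = 0.0247). Wif1 lay between 5.64 and 6.75 in CTRL and between 7.04 and 7.65 in HFD p110α hep-/- mice, a rise of 1.07 against −0.57 in p110α hep+/+ mice. In the latter 3 of 6 CTRL arrays and 0 of 6 HFD arrays were well above background, so the −0.57 and the interaction are differences between measured signals only. Dio3os, in turn, differed by 0.48 (adjusted p = 0.228) in p110α hep-/- mice and by −1.27 in p110α hep+/+ mice. Without CTRL mice 5 and 6 the interactions of Clec2h (adjusted p = 0.0643) and Cyp2c70 (adjusted p = 0.053) were not called. That of Clec2h was also lost without HFD mouse 1, 2 or 3 or CTRL mouse 4 or 6. None of the 19 ER chaperones was called for this interaction, with list medians of 0.74 and 0.18, and for Derl3 it was 1.86 (adjusted p = 0.109).

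**Figure D4:**
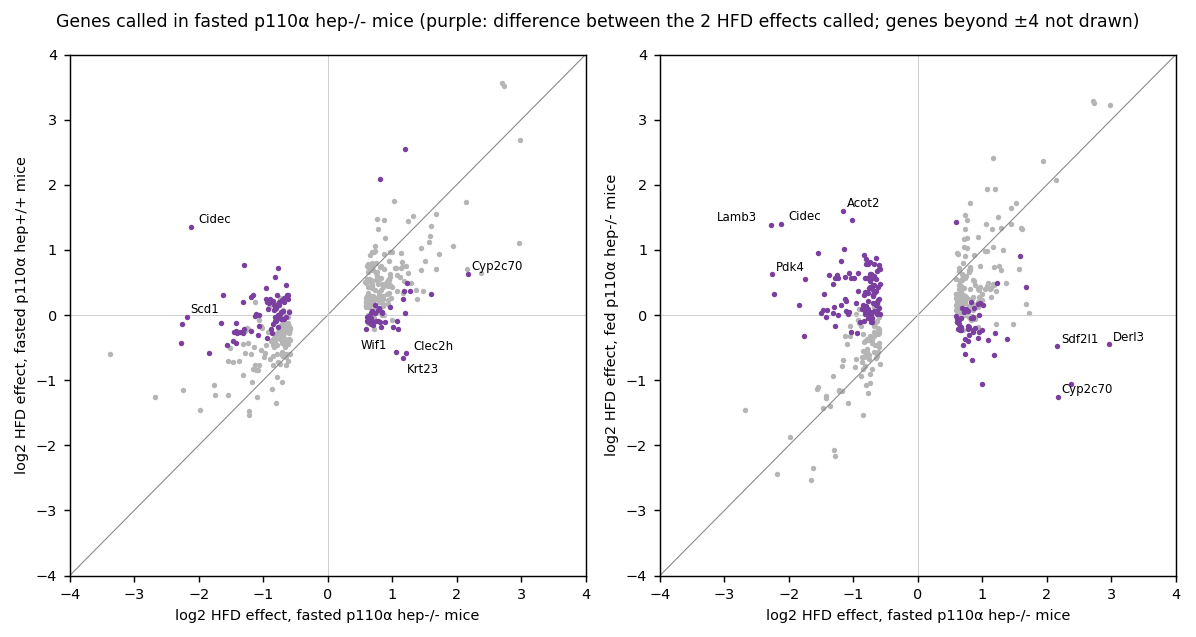
HFD minus CTRL difference (log2) of the 387 called genes in fasted p110α hep-/- mice (x axes) against that in fasted p110α hep+/+ mice (left) and in fed p110α hep-/- mice (right), with the line of equal values, genes called for the interaction in purple, and Hamp, Cyp2b13 and, on the right, Hamp2 not drawn because they lie beyond the axes. Cidec lies in the upper left of both panels, at −2.12 against 1.36 and 1.40.

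The diet by nutritional state interaction asked whether the HFD effect in p110α hep-/- mice depended on the fast, against 12 fed p110α hep-/- mice. In the fed mice 264 of the 20486 genes were called higher and 211 lower. Of the 188 genes higher in the fasted liver, 50 were also called higher in the fed liver (26.6% and 18.9% of the lists) and 4 lower. Of the 199 lower genes 41 were also called lower (20.6% and 19.4%), while 26 were called higher in fed mice. By sign alone, 136 of the 188 higher and 97 of the 199 lower genes had the same direction in both states. The interaction was called for 591 genes (2.88% of all), the fasted mice showing the more positive effect for 227 and the more negative for 364. These included 52 of the 188 higher and 110 of the 199 lower genes. Here too the difference that picked the genes enters the interaction, and their share is not comparable with that of all genes.

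ER chaperones were among the genes with positive interactions. Of the 19 ER genes, 14 were called, all more positive in fasted mice, and the list medians were 0.74 in fasted and −0.23 in fed mice. For Derl3 the HFD effect was 2.97 in fasted and −0.45 in fed mice, an interaction of 3.41 (adjusted p = 0.00151), and for Sdf2l1 it was 2.64 (adjusted p = 0.000938). The level of Derl3 in fasted CTRL mice, 7.67 ± 0.53 (SD, n = 6), was under that of fed CTRL mice, 9.45 ± 0.84, and on HFD the order turned, with 10.66 ± 1.02 in fasted and 9.10 ± 1.52 in fed mice. Cyp2c70 changed by 2.17 against −1.25 (3.42, adjusted p = 3.5e-07). Serpina4-ps1, a serpin pseudogene, differed by −0.97 (adjusted p = 0.359) in fasted and −3.78 in fed mice, an interaction of 2.81 (adjusted p = 0.0393) that was not called without CTRL mice 5 and 6 (adjusted p = 0.0649), nor without HFD mouse 1, 4 or 5 or CTRL mouse 1, 3 or 6 alone.

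Genes of fatty acid oxidation and storage were among those with negative interactions. Of 26 oxidation genes 20 were called, all more negative in fasted mice, with list medians of −0.27 in fasted and 0.57 in fed mice. Of 10 Cyp4a and thioesterase genes 8 were called in the same direction, with medians of −0.74 and 1.00. Acot2 changed by −1.16 in fasted and 1.60 in fed mice (−2.76, adjusted p = 1.63e-06), and Cyp4a14 by −0.18 and 2.52 (−2.70, adjusted p = 0.00326). The fasted CTRL level of Cyp4a14, 11.40 ± 0.47, was already above the fed HFD level of 10.04 ± 0.80 (SD, n = 6 each). Cidec changed by −2.12 against 1.40 (−3.52, adjusted p = 0.000154), Lamb3 by −2.27 against 1.39 (−3.66, adjusted p = 5.9e-08) and Pdk4 by −2.26 against 0.62 (−2.88, adjusted p = 0.00095). For Fgf21 the interaction was −2.30 (adjusted p = 1.42e-05).

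For some genes the effect on HFD was of like size in both states. Scd1 changed by −2.19 in fasted and −2.44 in fed p110α hep-/- mice, and the interaction was 0.25 (SE 0.36, adjusted p = 0.753). Its mean level on HFD was 13.33 ± 0.14 in fasted and 14.49 ± 0.62 in fed p110α hep-/- mice, and 16.37 ± 0.50 in fasted p110α hep+/+ mice (SD, n = 6 each). Fasn, which was not called in fasted mice, differed by −0.23 against −1.65 in fed mice (interaction 1.43, adjusted p = 0.000947). The differences in fasted and fed mice were 1.94 and 2.36 for Cd36 and 2.15 and 2.08 for Tfrc, and neither interaction was called (adjusted p = 0.566 and 0.959).

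Several of the largest changes were present in all 3 HFD comparisons, with values that stood as follows. Cyp2b13 differed by 3.61 in fasted p110α hep-/-, 4.92 in fasted p110α hep+/+ and 5.83 in fed p110α hep-/- mice, Cyp2b10 by 2.73, 3.52 and 3.25, and Cfd by 2.98, 2.69 and 3.22, in the same order. Of the 6 CTRL arrays in each comparison, Cyp2b13 was well above background in 4, 2 and 2, and Cfd in 5, 6 and 3. The values of these 2 genes are therefore differences between measured signals and not exact sizes. The dicarboxylate transporter Slc13a3 differed by 1.59, 1.21 and 0.90, Pparg by 1.15, 0.82 and 1.33, and Ppp1r3g by −1.99, −1.46 and −1.87. Hamp differed by −8.24, −4.38 and −8.90, and Hamp2 by −3.37, −0.60 (adjusted p = 0.661) and −6.37. Each value other than that one had an adjusted p under the threshold, and among these genes only Slc13a3 was called for an interaction, that with the nutritional state (0.69, adjusted p = 0.0349). The spread of Hamp between mice leaves its interactions, −3.86 (adjusted p = 0.167) and 0.66 (adjusted p = 0.877), poorly determined.

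**Figure D5:**
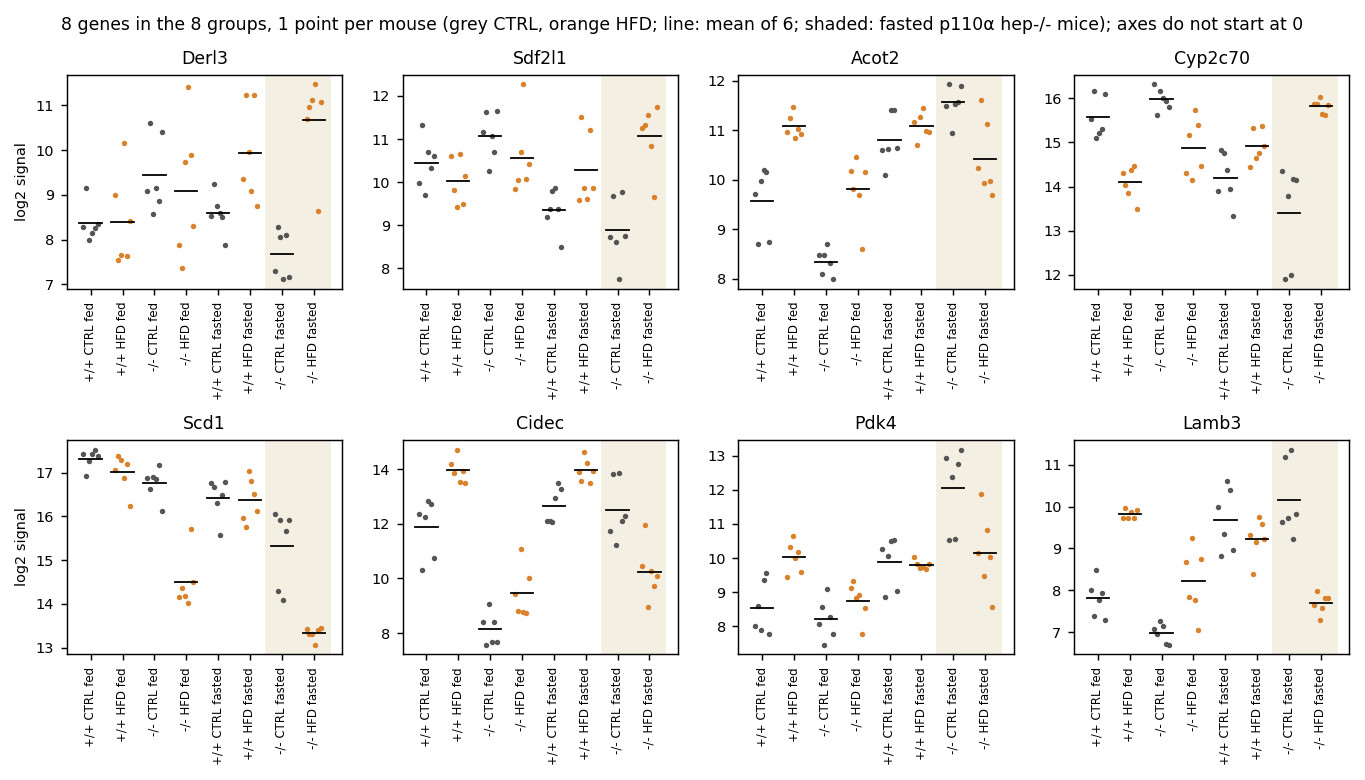
Normalized log2 signal (y axis) of Derl3, Sdf2l1, Acot2, Scd1, Cidec, Pdk4, Lamb3 and Cyp2c70 in all 8 groups, 1 point per mouse with the group mean as a line (n = 6) and the fasted p110α hep-/- mice shaded. Scd1 has the lowest mean of the 8 groups, 13.33, on HFD in fasted p110α hep-/- mice.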

How the data were processed

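Liver RNA (200 ng per mouse) was labelled with Cy3 and hybridised to 48 Agilent arrays on 6 slides and in 2 wash batches, with 3 arrays of each group per batch. The authors deposited spot intensity values from Agilent Feature Extraction 10.10.1.1, per the labels, and a table of normalized log2 values whose column medians are all 7.68501. From the deposited intensity values, the log2 median signal was taken without background subtraction, outlier spots (92 to 151 per array) were left out, and spots of a probe were averaged. The filter retained probes for which, in any group, 5 or more of the 6 arrays held it well above background (30793 of 56605). The wash batch was removed with group means protected, and arrays were quantile normalized. limma 3.58.1 in R 4.3.3 fitted 8 group means with array weights and 40 residual degrees of freedom. p-values were adjusted over all probes kept, and a gene was given by its brightest probe over the 48 arrays. Of 20486 genes, 6584 have only accession or predicted names and were counted but not named.

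Named genes were the 12 largest rises and falls with no overlap between groups, the 5 most extreme called genes in either direction of both interactions, and from each list the called members with the largest differences and textbook markers, and a few of these genes are not reported here. Bmp6 and other values given to complete small counts were named after their values were seen. The members and lists were chosen with earlier results of these data known, so list counts are descriptions. Each sample was 1 mouse. How mice were spread over litters and cages is not given in the sources used here, so p-values measure only the spread between these mice. Arrays have no read depth, and the number of mice limits the precision. The fit was tested on simulated data. Alternatives were other signals, scalings, filters, batch terms, probe rules and sets of arrays, and leaving out mice.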

Additional observations from a re-analysis of the deposited data

Results flagged for a closer look

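In groups of 6 mice, a single value stood far from the other 5 by Dixon's criterion in 6 of the 172 gene and group pairs tested, and chance alone marks about 1 in 20 groups. Derl3 was at 8.64 in HFD mouse 3, with the next HFD mouse at 10.69. Hamp was at 16.06 in HFD mouse 4, with the next at 8.88, and Id1 was at 9.90 in the same mouse, with the next at 8.73. Hilpda was at 9.69 in HFD mouse 5, with the next at 9.02. In the CTRL group Irf7 was at 12.45 in mouse 3, with the next at 12.86, and Lgr5 was at 6.28 in mouse 2, with the next at 6.65.

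The HFD effect differed between fasted p110α hep-/- and fasted p110α hep+/+ mice, by the test of the difference itself, for the genes named with it. The difference was positive for Krt23 (1.84), Clec2h (1.81), Dio3os (1.75), Wif1 (1.64) and Cyp2c70 (1.54). It was negative for Cidec (−3.48), Ly6d (−2.55), Sqle (−2.54), Cidea (−2.43) and Scd1 (−2.17).

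Between fasted and fed p110α hep-/- mice the HFD effect differed, with a positive value, for Cyp2c70 (3.42), Derl3 (3.41), Serpina4-ps1 (2.81) and Sdf2l1 (2.64). The value was negative for Lamb3 (−3.66), Cidec (−3.52), Pdk4 (−2.88), Acot2 (−2.76) and Cyp4a14 (−2.70). Cyp2c70 and Cidec were thus among the named genes of both interactions.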

How the results depend on the processing

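The main count of 387 genes stayed within 1.5 times under 17 of 21 alternatives other than leaving out 1 fasted p110α hep-/- mouse, and the interaction counts of 379 and 591 under 14 of 17 and 15 of 17. The HFD count was 622 with the processed signal scaled at its 75th percentile, 2220 with the adjusted p alone, 116 with a fold change over 2 and 150 in wash batch 1 on its own. Wash batch 2 on its own gave 419, and both batches hold 3 mice of each group. The genotype by diet count was 247 without the filter on dim probes, which tests more probes, 1017 with the adjusted p alone and 110 with a fold change over 2. The diet by nutritional state count was 1618 and 198 under the last 2 of these. With 1 mouse left out the counts ranged from 328 (without HFD mouse 3) to 451 (without HFD mouse 4), from 287 to 527 (the same mice), and from 521 (without HFD mouse 3) to 632 (without HFD mouse 6). Leaving out CTRL mice 5 and 6 together, and 1 fed HFD mouse of low array weight, were chosen after seeing the data, and gave 384, 346 and 547 genes for the pair and 654 for the diet by nutritional state count without the fed mouse. Replicate numbers did not pair the mice, since same-numbered mice correlated between −0.058 and 0.125 in their deviations, and the replicate block gave 406, 382 and 619 genes. Acacb was the 1 named call that turned, to 0.0488 with the median over its 3 probes. In a fit of the 12 arrays of fasted p110α hep-/- mice alone, 378 genes were called. Among the named genes, Apoa5, Saa3, Slc4a1 and Hba-a1 lost their calls in that fit, and Hamp had an adjusted p of 0.00402. Of 95 named calls, 70 held under every alternative other than the fits of 1 wash batch, which were left out of this tally, and 24 were lost under at least 1. The cause was not tested for any of these. Signals close to background, as for Hamp, Cyp2b13, Cfd, Cidea, Sqle and Wif1, limit the differences that can be seen.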
